A study of Mus musculus with 12 samples.

Results

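The genes described here were 10 regulators and effectors of heat production in fat: Ucp1, Ckb, Kcnk3, Elovl3, Dio2, Fgf21, Ppargc1a, Prdm16, Ebf2 and Ppara. They were chosen by gene symbol, as genes of the brown and beige fat programme outside the respiratory chain, and each had 1 row among the 25232 genes of the deposited table. RNA was sequenced from whole epididymal white adipose tissue (eWAT, a visceral fat pad) of C57BL/6 mice. Wild-type mice (WT) and mice labelled TET KO (TKO) received either the diet labelled normal (ND) or the one labelled high fat (HFD), which gave the groups ND_WT, ND_TKO, HFD_WT and HFD_TKO with 3 biological replicates each. TET proteins oxidise 5-methylcytosine in DNA, and the series title places their loss in adipocytes and ties it to energy expenditure. The sources used here do not give the TET genes deleted, the driver of the deletion, the age of the mice or the length of feeding. Values are CPM, reads scaled to a common library total, and libraries held 20973140 to 25606629 reads, so that 3 reads were worth 0.117 to 0.143 CPM.

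Brown and beige adipocytes burn fuel for heat, mainly through the mitochondrial uncoupling protein UCP1 and also through futile cycles that spend ATP, such as the creatine cycle. Cold and nerve signals reach these cells through beta-adrenergic receptors, and a set of nuclear factors and coactivators keeps the programme active. White visceral fat of the mouse is known for holding few such cells.

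The tissue carried the markers of white fat. Summed over 10 mature adipocyte markers, expression lay at 51797 to 65358 CPM in ND_WT, 58693 to 64124 CPM in ND_TKO, 25812 to 28511 CPM in HFD_WT and 48252 to 48687 CPM in HFD_TKO. Summed over 10 macrophage markers it lay at 710 to 1058, 556 to 826, 4968 to 5785 and 1068 to 1208 CPM in the same order. In each group 5 of 7 epididymis markers were under the 3-read floor in all libraries. With 3 libraries per group, most values are the highest or the lowest of their group. HFD_TKO replicate 1 held such a value for all 10 thermogenic genes, against 4 to 7 of the 10 in each other library. Results that turn on HFD_TKO replicate 1 are given with and without it. The same library held 38.3 CPM summed over 6 mesothelium markers, against 188 and 163 CPM in replicates 2 and 3. It also held 1707 CPM summed over 8 stromal and progenitor markers, against 2123 and 2240 CPM. Most of that difference lay in 1 of the 8, Dcn, at 777 CPM against 1163 and 1151 CPM. The part of these cells in the values of this library was not tested.

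Changes are log2 differences on the log2(CPM + 1) scale with their standard error (SE), tested with limma over 15597 genes and called at an adjusted p of 0.05. Of the 10 genes, 9 had at least 0.5 CPM in 3 or more libraries and were tested. For TKO against WT on ND, 1 of the 9 was called, Ckb, which was lower, where 5.7% of all tested genes were called (2.16% higher and 3.54% lower). On HFD, 4 of the 9 were called between TKO and WT, with Ppargc1a, Dio2 and Kcnk3 higher and Ckb lower, where 46.7% of all tested genes were called (15.2% higher and 31.6% lower). For HFD against ND in WT, 8 of the 9 were called, 5 higher and 3 lower, against 58.1% of all tested genes (37.8% higher and 20.3% lower). In TKO the diet comparison called 4 of the 9, Dio2, Kcnk3 and Ckb higher and Ebf2 lower, against 22.1% of all tested genes (16.2% higher and 5.9% lower). The share of the 9 that was called on HFD between genotypes was near the background share. Elovl3 and Fgf21 reached 0.5 CPM in HFD libraries only, so they entered the test through the diet in which they were high. Of the other 7 genes, 6 were called for HFD against ND in WT, 3 higher and 3 lower. The comparisons of genotype within a diet and of diet within a genotype share libraries, so their counts are not independent of each other. TMM scaling, which offsets the weight of a few abundant genes, evened the directions over all genes: 3.19% were higher and 2.71% lower between genotypes on ND, 22.7% and 24.7% on HFD, 29.2% and 28.2% with HFD in WT and 9.75% and 8.94% with HFD in TKO. No called change of the 9 genes turned its direction under that scaling. The median change of those 7 was 0.51 for TKO against WT on HFD, beside -0.10 over all tested genes, and -0.08 for HFD against ND in WT, beside 0.13 over all tested genes. With Elovl3 and Fgf21 the medians were -0.19 and 0.46, so their signs depend on these genes near the floor.

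**Figure D1:**
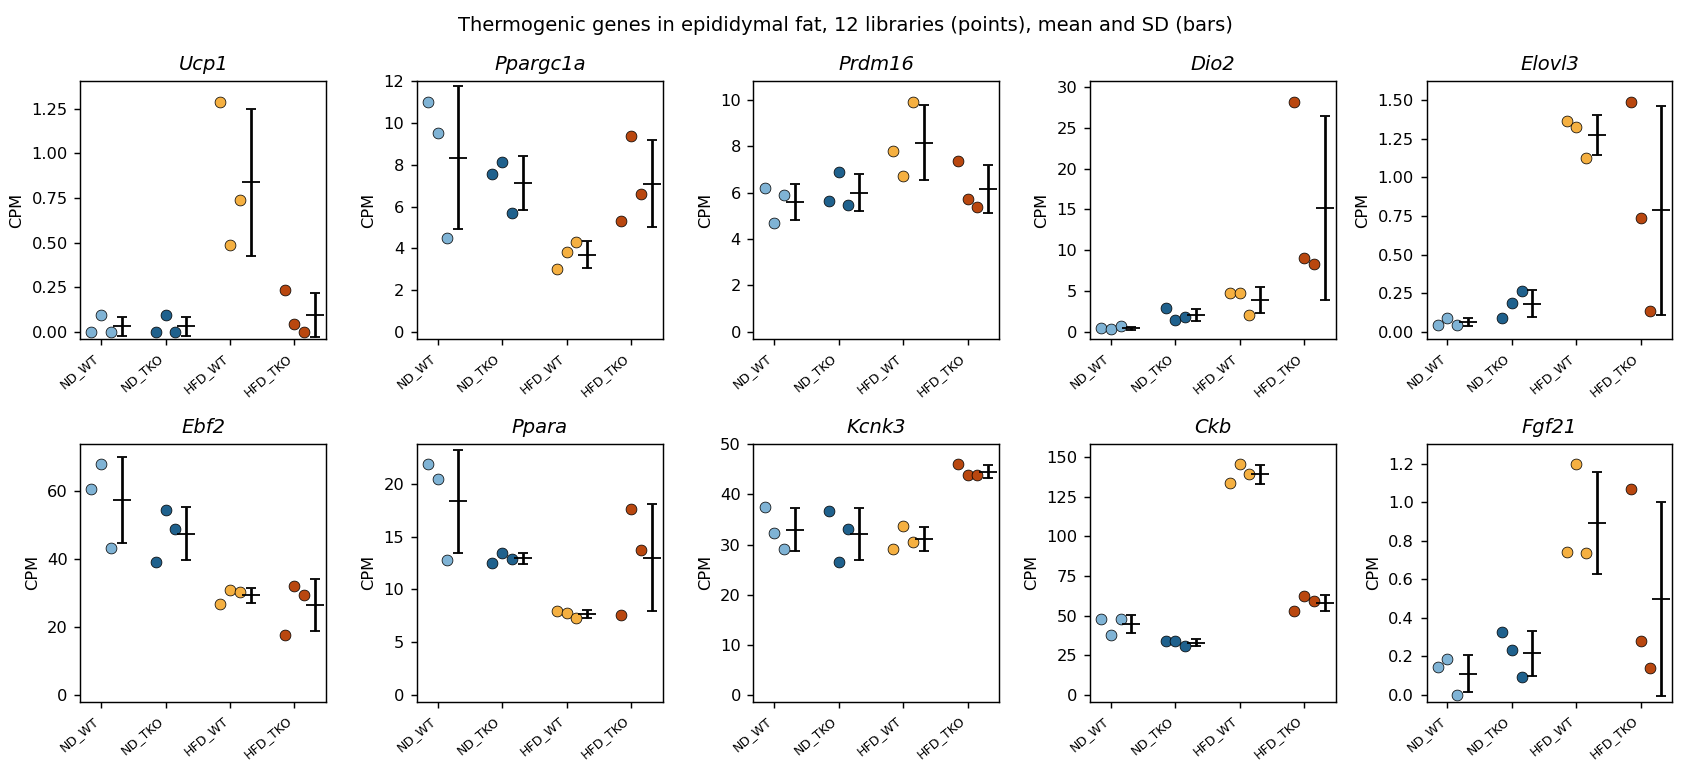
CPM of the 10 thermogenic genes (y axis, linear, a scale per gene) in the 12 libraries, with points for replicates 1, 2 and 3 of each group from left to right and black bars for the group mean and SD (n = 3). Ckb lay between 134 and 145 CPM in HFD_WT against 52.7 to 62.4 CPM in HFD_TKO, while Ucp1 exceeded 0.5 CPM in only 2 libraries.

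Ucp1, the uncoupling protein that defines brown fat, was too low to judge. Its gene (Entrez 22227) lies on chromosome 8 of mm10 from 83290352 to 83298452. The ND_WT libraries held 0, 2 and 0 Ucp1 reads in replicates 1, 2 and 3, and the ND_TKO libraries also held 0, 2 and 0. HFD_WT held 33, 11 and 17 reads, or 1.29, 0.487 and 0.736 CPM, and HFD_TKO held 5, 1 and 0. Ucp1 was at or under the 3-read floor in 8 of 12 libraries, and the HFD_WT libraries were the only 3 with more than 5 reads. It had at least 0.5 CPM in 2 libraries and was therefore not tested. Fitted without any filter on low values, Ucp1 differed by 0.81 between HFD_WT and ND_WT (SE 0.13, adjusted p = 0.00051) and by -0.73 between HFD_TKO and HFD_WT (adjusted p = 0.00143), and these values rest on at most 33 reads per library.

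Fgf21, which encodes a secreted hormone that acts on fat and brain through the co-receptor beta-Klotho, was low. Its gene (Entrez 56636) lies on chromosome 7 from 45613886 to 45615490. ND_WT held 3, 4 and 0 Fgf21 reads, ND_TKO 7, 5 and 2, HFD_WT 19, 27 and 17, and HFD_TKO 23, 6 and 3. HFD_WT was above every ND library, whereas HFD_TKO ranged from the floor to the HFD_WT level. All group means were under 1 CPM, with the highest at 0.891 ± 0.263 CPM (SD, n = 3) in HFD_WT. Fgf21 rose with HFD in WT (0.76, SE 0.21, adjusted p = 0.00739), a size set largely by the added 1 CPM, since the change was 2.81 with edgeR on the recovered reads. TKO against WT on HFD gave -0.38 (adjusted p = 0.153), and -0.64 (adjusted p = 0.00868) without HFD_TKO replicate 1, the library with 23 reads. The genotype by diet interaction, the TKO effect on HFD minus that on ND, was -0.51 (adjusted p = 0.221), and -0.77 (adjusted p = 0.0223) without that library.

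Elovl3, an elongase of very long chain fatty acids induced in active brown fat, was tested but lay near the floor on ND. Its gene (Entrez 12686) lies on chromosome 19 from 46131897 to 46135694 and shares 10 exonic bases with Pitx3. Elovl3 had 1, 2 and 1 reads in ND_WT and 2, 4 and 6 in ND_TKO. HFD_WT held 35, 30 and 26 reads, or 1.37, 1.33 and 1.13 CPM, and HFD_TKO held 32, 16 and 3. The HFD_WT libraries lay together, whereas those of HFD_TKO spread from the ND_TKO level (0.138 CPM) to above HFD_WT (1.49 CPM). Elovl3 rose with HFD in WT (1.10, SE 0.22, adjusted p = 0.00114), and the change was 4.09 with edgeR on the recovered reads. In TKO the diet difference was 0.53 (adjusted p = 0.109), and it was called without HFD_TKO replicate 3 (0.82, adjusted p = 0.0131). Between genotypes on HFD the difference was -0.42 (adjusted p = 0.143), and it was called without HFD_TKO replicate 1 (-0.69, adjusted p = 0.00886). The interaction was -0.57 (adjusted p = 0.202), and -0.84 (adjusted p = 0.0214) without the same library.

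**Figure D2:**
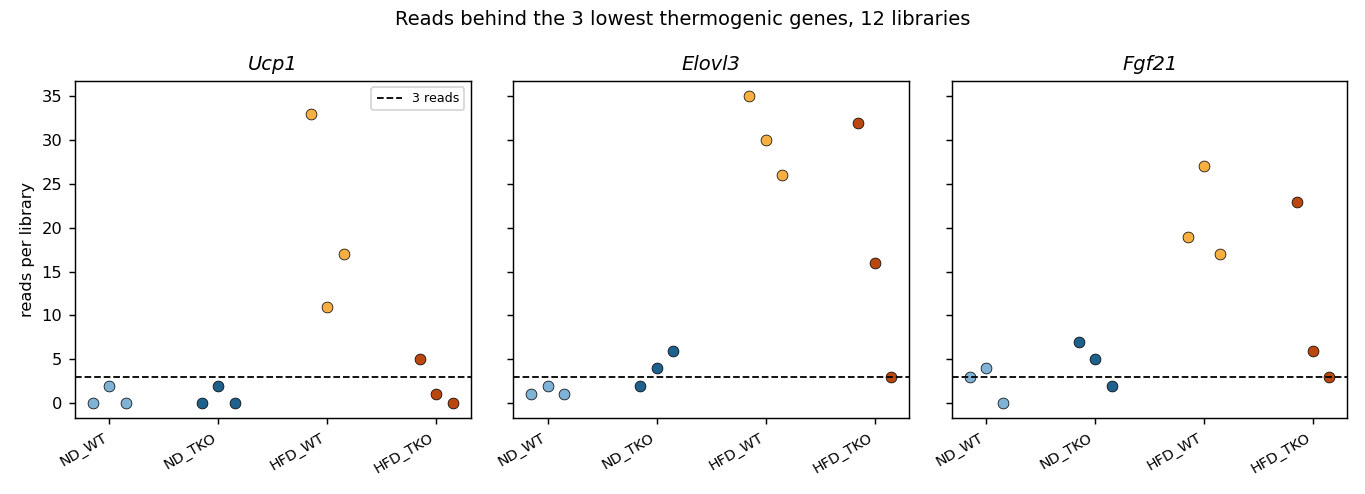
Reads per library (y axis, linear) of Ucp1, Elovl3 and Fgf21 in the 4 groups, a point per library and a dashed line at 3 reads. HFD_WT is the only group whose 3 libraries all hold more than 10 reads of each gene, and HFD_TKO replicate 1 (leftmost of its group) is the highest of its group for all 3.

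The other 7 genes had no library at or under the 3-read floor. Ckb, brain-type creatine kinase, works in the creatine cycle that spends ATP in thermogenic fat, and it was the most abundant of the 10 per length of exon in every group. Its gene (Entrez 12709) lies on chromosome 12 from 111669361 to 111672338, on the minus strand. Ckb stood at 47.8, 37.9 and 47.5 CPM in ND_WT and at 34.2, 34.0 and 30.7 CPM in ND_TKO. On HFD it stood at 134, 145 and 139 CPM in WT and at 52.7, 62.4 and 58.9 CPM in TKO. No 2 of the 4 groups overlapped: ND_TKO was lowest, then ND_WT, HFD_TKO and HFD_WT.

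Ckb rose with HFD in WT by 1.63 (SE 0.10, adjusted p = 7.9e-08) and in TKO by 0.80 (SE 0.10, adjusted p = 0.00103). TKO was lower than WT on HFD, at 58.0 ± 4.95 against 139 ± 5.97 CPM (SD, n = 3; log2 change -1.25, SE 0.10, adjusted p = 1.19e-06), and this call was made under all 21 alternatives. On ND the difference was -0.41 (SE 0.10, adjusted p = 0.0304). The interaction was -0.84 (SE 0.14, adjusted p = 0.00088), so the lowering of Ckb in TKO was larger on HFD than on ND. HFD_TKO remained 0.38 above ND_WT (adjusted p = 0.011), a call lost in a fit of only HFD_TKO and ND_WT (adjusted p = 0.0537). The ND call between genotypes was lost in a fit of only the ND groups (adjusted p = 0.121), and without ND_WT replicate 1 (0.121), ND_TKO replicate 1 (0.0621), 2 (0.0559) or 3 (0.109), or HFD_WT replicate 1 (0.0505).

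Macrophage markers moved in the same directions as Ckb on HFD. All 10 macrophage markers were called higher with HFD in WT and lower in TKO than in WT on HFD, and none of the 10 was under the floor in all libraries of a group. On ND, 1 of the 10 was lower in TKO. The stromal and progenitor markers moved likewise on HFD, with 6 of 8 lower in TKO and none higher. In whole tissue, fewer cells of a type and less RNA per cell cannot be told apart, and the part of these cells in the Ckb values was not tested.

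**Figure D3:**
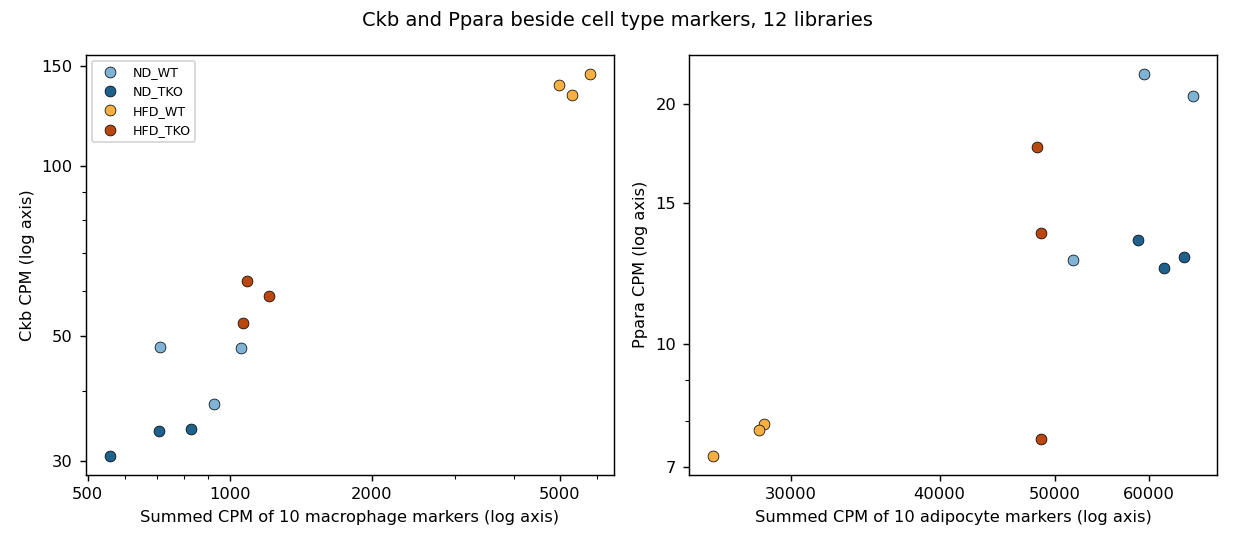
Left, Ckb CPM against the summed CPM of 10 macrophage markers; right, Ppara CPM against the summed CPM of 10 mature adipocyte markers; all axes are logarithmic and each point is 1 of the 12 libraries, coloured by group. The HFD_WT libraries are highest on both axes of the left panel (134 to 145 CPM of Ckb) and lowest on the adipocyte axis of the right panel (7.23 to 7.93 CPM of Ppara), where HFD_TKO replicate 1 lies as low for Ppara (7.58 CPM) at a higher adipocyte sum.

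Dio2, the deiodinase that turns thyroxine into active thyroid hormone inside thermogenic cells, rose with the diet in both genotypes and was higher in TKO on HFD. Its gene (Entrez 13371) lies on chromosome 12 from 90724552 to 90738438, on the minus strand. Dio2 stood at 0.430, 0.323 and 0.685 CPM in ND_WT and at 2.95, 1.44 and 1.87 CPM in ND_TKO. On HFD the values were 4.76, 4.82 and 2.08 CPM in WT and 28.2, 9.10 and 8.27 CPM in TKO. Every TKO library was above every WT library of the same diet, and HFD_TKO replicate 1 was far above all others.

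On HFD, Dio2 averaged 15.2 ± 11.3 CPM in TKO against 3.89 ± 1.57 CPM in WT (SD, n = 3; log2 change 1.57, SE 0.39, adjusted p = 0.00603). Without HFD_TKO replicate 1 this change was 1.04 (adjusted p = 0.0117), and the call was made under all 21 alternatives. On ND the change in TKO was 1.04 (SE 0.39, adjusted p = 0.143). The ND change was called with DESeq2 on the recovered reads (2.19, adjusted p = 0.00332) and in the fit without HFD_TKO replicate 1 (adjusted p = 0.0317). A difference between the TKO effects on the 2 diets was not called (interaction 0.54, 95% interval -0.68 to 1.75, adjusted p = 0.519). The rise with HFD was 1.67 in WT (adjusted p = 0.00314) and 2.21 in TKO (adjusted p = 0.00359). In WT it was 2.85 with edgeR on the recovered reads and 0.68 with a pseudocount of 5 CPM (adjusted p = 0.0512), as the ND_WT values lie under 1 CPM. Dio2 shares 100 exonic bases with Gm26512 on the other strand.

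Kcnk3, a 2-pore potassium channel (TASK-1) described as a brown fat marker, was highest in HFD_TKO. Its gene (Entrez 16527) lies on chromosome 5 from 30588170 to 30625271. Kcnk3 stood at 37.5, 32.4 and 29.0 CPM in ND_WT, at 36.7, 26.5 and 33.1 CPM in ND_TKO and at 29.1, 33.7 and 30.4 CPM in HFD_WT. In HFD_TKO it stood at 46.0, 43.9 and 43.8 CPM, above every other library, while the other 3 groups overlapped.

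Kcnk3 was 0.51 higher in TKO on HFD (SE 0.12, adjusted p = 0.00421), a call made under all 21 alternatives. On ND the difference was -0.04 (95% interval -0.30 to 0.22, adjusted p = 0.891). The interaction was 0.55 (SE 0.17, adjusted p = 0.0293). It was not called without ND_WT replicate 1 (adjusted p = 0.0726) or ND_TKO replicate 2 (0.0553), nor without HFD_WT replicate 1 (0.0738) or 3 (0.0618), or HFD_TKO replicate 1 (0.0521), 2 (0.0502) or 3 (0.0528). Within TKO, Kcnk3 was 0.47 higher on HFD than on ND (adjusted p = 0.0164), and this was not called after TMM scaling (0.39, adjusted p = 0.0647), with edgeR (adjusted p = 0.0731), with DESeq2 (0.0529) or without ND_TKO replicate 2 (0.0505). In WT the diet difference was -0.08 (adjusted p = 0.604). The use of strand in counting was not given in the sources used here, and Kcnk3 shares 229 exonic bases with Gm9899 on the other strand, so some of its reads may belong to that gene.

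Ppargc1a, the coactivator PGC-1alpha that drives mitochondrial biogenesis and Ucp1 transcription, was lower with HFD in WT and higher in TKO than in WT on HFD. Its gene (Entrez 19017) lies on chromosome 5 from 51454250 to 51567726, on the minus strand. Ppargc1a stood at 11.0, 9.54 and 4.47 CPM in ND_WT and at 7.57, 8.16 and 5.69 CPM in ND_TKO. HFD_WT stood at 3.01, 3.81 and 4.29 CPM, below every other library, and HFD_TKO at 5.30, 9.37 and 6.58 CPM. ND_WT replicate 3 (4.47 CPM) lay just above the highest HFD_WT library (4.29 CPM), and HFD_TKO overlapped both ND groups.

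The fall of Ppargc1a with HFD in WT was -0.92 (SE 0.27, adjusted p = 0.0124), and the call ended without ND_WT replicate 1 (adjusted p = 0.0588) or HFD_WT replicate 1 (0.0501). The difference between TKO and WT on HFD was 0.76 (SE 0.27, adjusted p = 0.0384). It was lost without HFD_WT replicate 1 (adjusted p = 0.125), 2 (0.0747) or 3 (0.0523), without HFD_TKO replicate 2 (0.144) or 3 (0.0719), without a filter on low values (0.0633) and with a pseudocount of 5 CPM (0.46, adjusted p = 0.0522). On ND the difference was -0.13 (95% interval -0.73 to 0.47, adjusted p = 0.837). The interaction was 0.89 (adjusted p = 0.108), and it was called with edgeR (adjusted p = 0.047), with DESeq2 (0.0216) and without ND_WT replicate 3 (1.24, adjusted p = 0.0067). In TKO the diet difference was -0.03 (95% interval -0.63 to 0.57, adjusted p = 0.955).

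Ppara, the fatty acid-sensing nuclear receptor that turns on fat oxidation genes, followed a like order of groups. Its gene (Entrez 19013) lies on chromosome 15 from 85734983 to 85802819. Ppara stood at 21.8, 20.5 and 12.7 CPM in ND_WT and at 12.5, 13.5 and 12.8 CPM in ND_TKO. HFD_WT stood at 7.93, 7.79 and 7.23 CPM and HFD_TKO at 7.58, 17.6 and 13.8 CPM. HFD_WT was below all ND libraries, and HFD_TKO replicate 1 lay within its range while replicates 2 and 3 lay above it.

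Ppara fell with HFD in WT by 1.13 on the log2 scale (SE 0.25, adjusted p = 0.00207), and in TKO the diet difference was -0.06 (95% interval -0.61 to 0.48, adjusted p = 0.883). The interaction was 1.06 (SE 0.35, adjusted p = 0.0401). That call was lost without any filter (adjusted p = 0.065) and without each of 10 of the 12 libraries in turn, with adjusted p between 0.0653 and 0.095; it was kept without ND_WT replicate 3 and without HFD_TKO replicate 1. The difference between TKO and WT on HFD was 0.62 (SE 0.25, adjusted p = 0.0577). It was called with edgeR (adjusted p = 0.0124), DESeq2 (0.00227) and TMM scaling (0.74, adjusted p = 0.0211), without ND_WT replicate 3 (0.0316) and without HFD_TKO replicate 1 (0.94, adjusted p = 0.00237). HFD_TKO against ND_WT gave -0.50 (adjusted p = 0.135), called without ND_WT replicate 3 (-0.73, adjusted p = 0.0308) or HFD_TKO replicate 2 (-0.75, adjusted p = 0.0359).

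Prdm16, the transcriptional coregulator that specifies brown and beige adipocytes, had group means from 5.60 CPM in ND_WT to 8.15 CPM in HFD_WT. Its gene (Entrez 70673) lies on chromosome 4 from 154316125 to 154636873 and shares 109 exonic bases with B230104I21Rik on the other strand. Prdm16 stood at 6.20, 4.70 and 5.89 CPM in ND_WT, at 5.63, 6.90 and 5.47 CPM in ND_TKO, at 7.81, 6.73 and 9.91 CPM in HFD_WT and at 7.35, 5.74 and 5.39 CPM in HFD_TKO. HFD_WT was above ND_WT and overlapped the other groups. Prdm16 rose with HFD in WT by 0.46 (SE 0.16, adjusted p = 0.0253). That call ended after TMM scaling (0.32, adjusted p = 0.092), with edgeR (adjusted p = 0.0878), with DESeq2 (0.0982), and without ND_WT replicate 2 (0.0981) or HFD_WT replicate 1 (0.0517) or 3 (0.113). TKO against WT gave 0.09 on ND (95% interval -0.26 to 0.44, adjusted p = 0.809) and -0.35 on HFD (adjusted p = 0.0931), the second of which was called without HFD_TKO replicate 1 (-0.46, adjusted p = 0.0427).

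Ebf2, the transcription factor that marks committed brown and beige precursors, fell with HFD in both genotypes. Its gene (Entrez 13592) lies on chromosome 14 from 67233292 to 67430918 and shares 424 exonic bases with the antisense gene Gm10860. Ebf2 stood at 60.8, 67.9 and 43.4 CPM in ND_WT and at 39.2, 54.5 and 48.9 CPM in ND_TKO. On HFD it stood at 26.9, 30.9 and 30.2 CPM in WT and at 17.7, 32.2 and 29.3 CPM in TKO. All HFD libraries lay below all ND libraries, and the genotypes overlapped on each diet. The fall was -0.92 in WT (SE 0.21, adjusted p = 0.0028) and -0.85 in TKO (SE 0.21, adjusted p = 0.0156), and the call in TKO ended without ND_TKO replicate 2 (adjusted p = 0.0553) or 3 (0.0586). TKO against WT gave -0.26 on ND (adjusted p = 0.524) and -0.19 on HFD (adjusted p = 0.509), with 95% intervals of -0.72 to 0.21 and -0.65 to 0.28. The interaction was 0.07 (95% interval -0.59 to 0.73, adjusted p = 0.896).

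**Figure D4:**
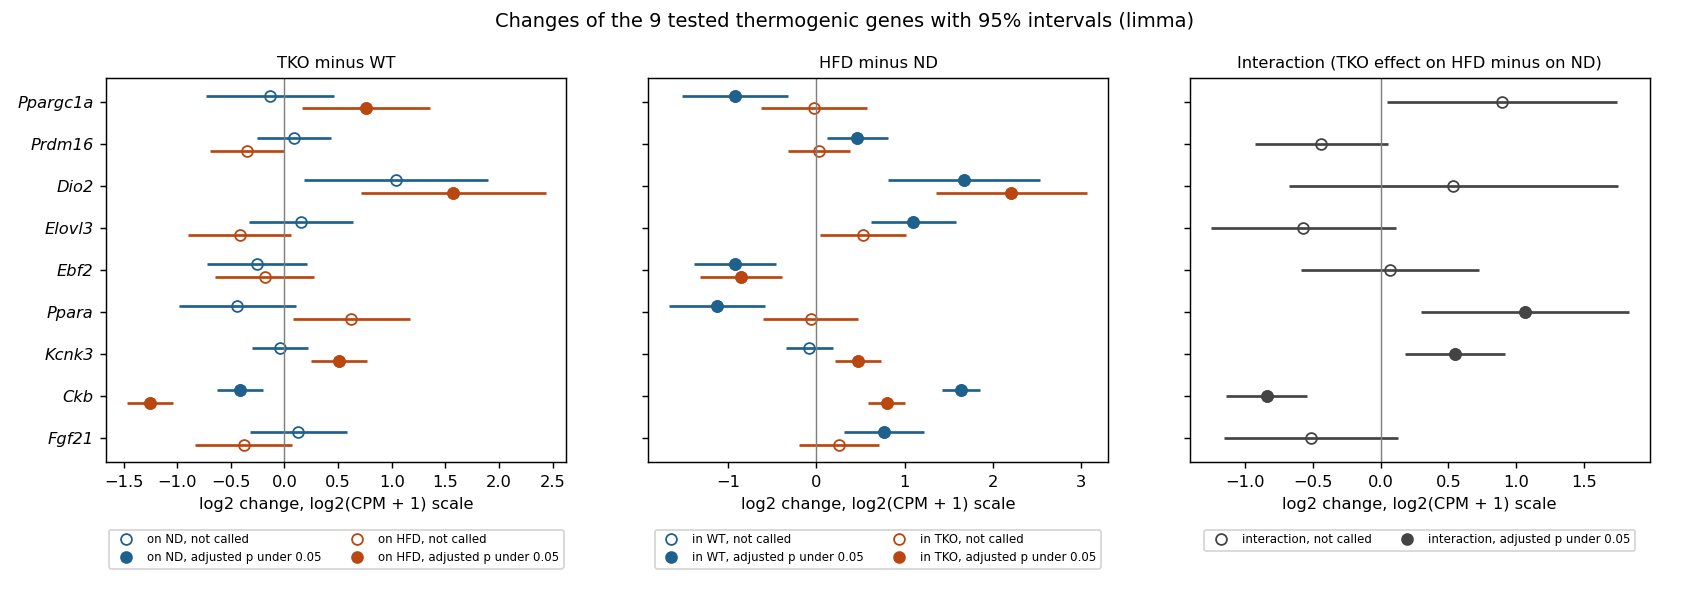
Log2 changes of the 9 tested thermogenic genes on the log2(CPM + 1) scale (x axes) with 95% intervals from limma; left, TKO minus WT on ND (blue) and HFD (red); middle, HFD minus ND in WT (blue) and TKO (red); right, the interaction; filled points were called at an adjusted p under 0.05. Ckb has the narrowest intervals and the lowest value for TKO on HFD (-1.25), and Dio2 has the highest (1.57).

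The interaction was called for 3 of the 9 tested genes, Ppara and Kcnk3 with a higher and Ckb with a lower TKO effect on HFD than on ND, where 28.7% of all tested genes were called (9.94% higher and 18.8% lower). HFD_TKO was also set against ND_WT, a comparison in which diet and genotype change together. It called 5 of the 9, where 35.1% of all tested genes were called (20% higher and 15% lower). Dio2 (3.25, SE 0.39, adjusted p = 0.000226), Elovl3 (0.68, adjusted p = 0.0327), Kcnk3 (0.43, adjusted p = 0.0159) and Ckb (0.38, adjusted p = 0.011) were higher, and Ebf2 was lower (-1.11, adjusted p = 0.00254). Elovl3 and Fgf21 entered the test through HFD libraries only. Of the other 7 genes 4 were called, 3 higher and 1 lower. The sizes for Dio2 and Elovl3 depend on the added 1 CPM, as their ND_WT values lie under 1 CPM. Dio2 gave 4.97 with edgeR and 1.75 with a pseudocount of 5 CPM, and Elovl3 gave 3.55 with edgeR and 0.19 with that pseudocount. Ppargc1a (-0.16, 95% interval -0.76 to 0.44) and Prdm16 (0.12, 95% interval -0.23 to 0.46) were not called. The Elovl3 call was lost in a fit of only those groups (adjusted p = 0.107) and without ND_WT replicate 1 (0.0827), 2 (0.0689) or 3 (0.0571), HFD_TKO replicate 1 (0.40, adjusted p = 0.115) or 2 (0.0715).

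Of the genes called between genotypes on HFD, 3 had a RefSeq promoter entry (Dio2, Ppargc1a and Ckb). For these, the 300 bases from 250 before to 50 after the RefSeq start are printed, so that the sequences can be compared. The build is mm10, and each is written 5′ to 3′ on the gene's minus strand. They lie at chr12:90738989-90739288 (Dio2), chr5:51567676-51567975 (Ppargc1a) and chr12:111672289-111672588 (Ckb). The Dio2 window lies wholly upstream of the Dio2 locus given above, which ends at 90738438. The 2 sources thus place the Dio2 start differently, and the motif and CpG counts of Dio2 hold for the RefSeq start only. Capitals mark any match on either strand to AGGTCA (a nuclear receptor core site), TGACGTCA (the full cAMP response element), TGACG (its shorter form, which lies within TGACGTCA) or to TCCC and GGGA with any 2 bases between them (an EBF-type site).
Dio2: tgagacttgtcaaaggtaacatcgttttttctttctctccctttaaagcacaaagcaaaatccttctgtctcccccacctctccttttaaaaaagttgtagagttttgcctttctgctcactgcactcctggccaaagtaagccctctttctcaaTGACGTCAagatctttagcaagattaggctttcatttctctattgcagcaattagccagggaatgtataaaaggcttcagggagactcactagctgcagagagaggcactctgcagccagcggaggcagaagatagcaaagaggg
Ppargc1a: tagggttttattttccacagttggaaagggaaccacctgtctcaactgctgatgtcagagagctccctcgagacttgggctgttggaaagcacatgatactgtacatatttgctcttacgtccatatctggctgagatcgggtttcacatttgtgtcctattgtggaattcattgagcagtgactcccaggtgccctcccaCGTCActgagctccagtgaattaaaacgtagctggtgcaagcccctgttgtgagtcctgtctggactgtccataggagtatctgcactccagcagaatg
Ckb: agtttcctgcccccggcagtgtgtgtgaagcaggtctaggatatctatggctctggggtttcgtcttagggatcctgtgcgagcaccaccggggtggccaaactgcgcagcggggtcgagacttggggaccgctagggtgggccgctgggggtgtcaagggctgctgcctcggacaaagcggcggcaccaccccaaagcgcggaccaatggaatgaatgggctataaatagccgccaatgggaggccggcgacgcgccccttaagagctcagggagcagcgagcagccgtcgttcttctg
The Dio2 promoter held TGACGTCA, which 1.79% of 32851 RefSeq promoters of this length hold. Ppargc1a held TGACG, found in 20.8% of them, and Ckb held none of the 4 motifs. AGGTCA was in 16.3% and the EBF-type site in 0.904% of all promoters. Among the other members with an entry, Ucp1 held AGGTCA and TGACG, Ppara and Fgf21 held TGACG, and Prdm16 held none. As TET proteins act on methylated CpG, CpG pairs were counted: 3 in the Dio2, 5 in the Ppargc1a and 22 in the Ckb promoter, beside a median of 7 over all promoters. Of the others with an entry, Ucp1 had 15, Prdm16 24, Ppara 30 and Fgf21 9. A match is a run of letters in a window and was not tested for binding or methylation here. Elovl3, Ebf2 and Kcnk3 are named only.

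Levels of different genes were compared per kb of exon. In ND_WT the order of mean CPM per exonic kb was Ckb (15.3), Kcnk3 (8.29), Ebf2 (8.28), Ppara (4.78), Ppargc1a (1.27) and Prdm16 (0.600), with Fgf21 (0.115), Dio2 (0.0824), Elovl3 (0.0315) and Ucp1 (0.0191) below. In HFD_TKO, Dio2 stood at 2.61 per kb, above Ppargc1a (1.08) and below Ppara (3.39). Ckb per kb went from 11.4 in ND_TKO to 48.1 in HFD_WT. Ucp1 stood at 0.0191 to 0.512 per kb over the 4 groups, and its place in the order was not separable at these reads: Elovl3 in ND_WT and Ppargc1a in HFD_WT (0.561) lay close to it.

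The 10 genes were also read beside 6 adipocyte genes (Adipoq, Plin1, Lipe, Pnpla2, Cidec and Fabp4), since the levels of adipocyte markers differed between the groups. They leave out Lpl, Cfd, Retn and Lep of the 10 adipocyte markers summed above. Lep, the leptin gene, ran the other way with HFD in WT, from 495 to 2588 CPM in ND_WT to 2709.9 to 3098 CPM in HFD_WT. The mean log2(CPM + 1) of these 6 differed by 1.01 for TKO against WT on HFD, by -1.44 for HFD against ND in WT, by 0.15 for TKO against WT on ND and by -0.58 for HFD against ND in TKO. Relative to them, Dio2 stood at 0.56 for HFD_TKO against HFD_WT, which rested on HFD_TKO replicate 1 (-0.05 without it), whereas Ppargc1a (-0.25), Ppara (-0.39) and Kcnk3 (-0.50) changed sign. Ckb (-2.26), Prdm16 (-1.36) and Ebf2 (-1.20) were further below. So were Ucp1 (-1.74), Elovl3 (-1.43) and Fgf21 (-1.39), whose values rest on few reads. For HFD against ND in WT the relative values of Ppargc1a (0.52), Ppara (0.31) and Ebf2 (0.51) were above 0, opposite to their CPM. On ND, TKO against WT, Dio2 stood at 0.89 relative to the 6 genes and Ckb at -0.57. With all 10 markers as the reference, a choice added after seeing the data, each sign of a member for TKO against WT on HFD and for HFD against ND in WT was as with the 6. On ND that reference itself turned from 0.15 to -0.22, so that Ckb stood at -0.19 and Dio2 at 1.26, and Ppargc1a, Prdm16, Kcnk3, Fgf21 and Ucp1 changed sign. These relative values are descriptions without a test, and the part of adipocyte share in the CPM changes was not tested.

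**Figure D5:**
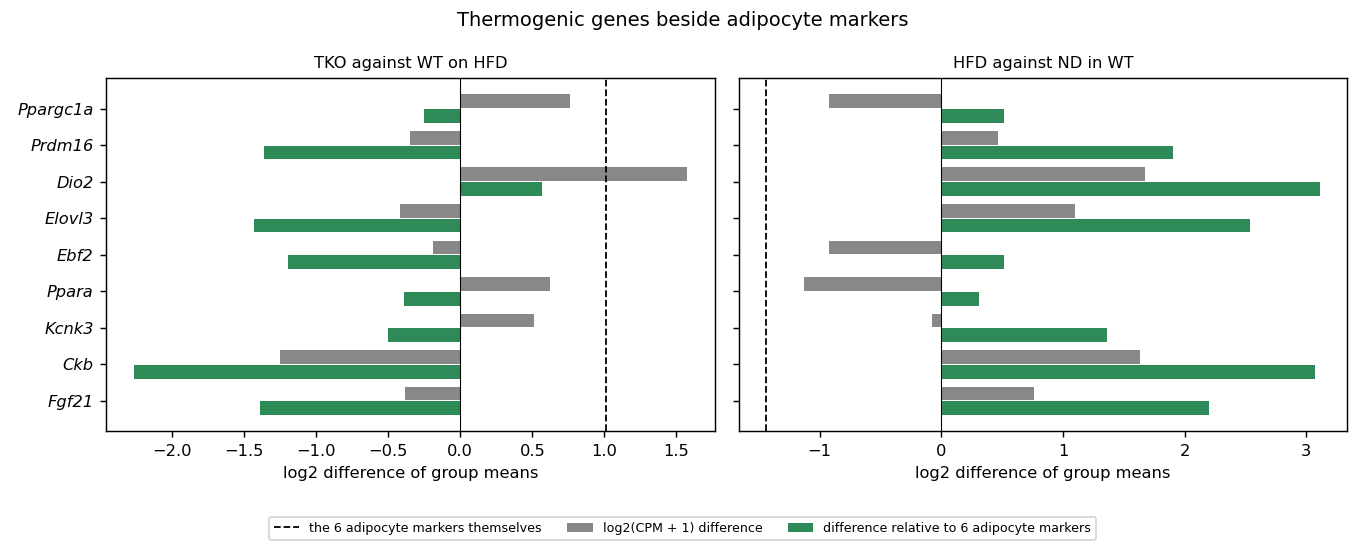
Log2 differences of group means (x axes) of the 9 tested thermogenic genes for TKO against WT on HFD (left) and HFD against ND in WT (right); grey bars are differences of log2(CPM + 1), green bars the same after subtracting the mean of 6 adipocyte genes, and the dashed line is the difference of those 6 genes. On the left only Dio2 has a green bar above 0 (0.56, or -0.05 without HFD_TKO replicate 1), and on the right all green bars are above 0.

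The neighbouring pathway was described with a wider list of 107 thermogenic genes, 93 of them tested. For TKO against WT on HFD, 28 were higher and 23 lower, with a median of 0.07 beside -0.10 over all tested genes, of which 15.2% were higher and 31.6% lower. After TMM scaling 34 were higher and 20 lower, where 22.7% and 24.7% of all tested genes were. Of 26 tested transcriptional regulators 11 were higher and 4 lower, and of 23 upstream receptors and signals 8 were higher and 4 lower. Of 23 brown and beige markers 4 were higher and 7 lower, and of 16 genes of uncoupling and futile cycles 4 were higher and 6 lower. On ND, 6 of the 93 were higher and 5 lower in TKO, beside 2.16% and 3.54% of all tested genes, and after TMM scaling 10 and 4, beside 3.19% and 2.71%. With HFD in WT 27 were higher and 29 lower, beside 37.8% and 20.3% of all tested genes, and after TMM scaling 21 and 39, beside 29.2% and 28.2%.

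Upstream of the 10 genes, Adrb3, the beta3-adrenergic receptor of adipocytes, fell with HFD in WT from 694 ± 147 to 23.3 ± 4.51 CPM (-4.83, SE 0.23, adjusted p = 2.39e-08). In HFD_TKO it stood at 297 ± 89.3 CPM, 3.58 above HFD_WT (SE 0.23, adjusted p = 3.64e-07). On ND the Adrb3 difference was -0.23 (adjusted p = 0.603), and the interaction was 3.81 (adjusted p = 1.56e-05). Thra, the thyroid hormone receptor alpha that reads the product of Dio2, was 0.51 higher in TKO on HFD (adjusted p = 0.000916). Of the Fgf21 receptors, Fgfr1 differed by 0.19 (adjusted p = 0.147) and its co-receptor Klb by 0.07 (adjusted p = 0.833) between genotypes on HFD. Of the other FGF receptors listed, Fgfr2 was 1.19 higher in TKO on HFD (adjusted p = 0.000164) and 1.16 higher on ND (adjusted p = 0.00331). Fgfr3 averaged 5.88 ± 0.596 CPM in HFD_TKO and 5.75 ± 0.894 CPM in HFD_WT. The Fgfr1 difference was called after TMM scaling (0.32, adjusted p = 0.0218), with edgeR (adjusted p = 0.0266), with DESeq2 (0.011) and without HFD_TKO replicate 1 (0.27, adjusted p = 0.0497).

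Of other genes of creatine synthesis and cycling, Gatm and Slc6a8 were lower and Gamt and Alpl were higher in TKO on HFD. Ckmt1 was low, with all group means under 1 CPM, and was not called (0.07, adjusted p = 0.834). Ckm and Ckmt2 were too low to be tested. Gatm, which makes the creatine precursor, averaged 43.7 ± 7.39 CPM in HFD_WT, against 11.9 ± 1.12 CPM in HFD_TKO (-1.79, SE 0.16, adjusted p = 2.64e-06). Slc6a8, the creatine transporter, was at 83.9 ± 6.06 and 20.4 ± 3.39 CPM (-2.00, SE 0.13, adjusted p = 3.14e-07). Gamt, the enzyme that completes creatine synthesis, averaged 59.4 ± 6.97 CPM in HFD_TKO, above HFD_WT at 29.2 ± 3.08 CPM (2.04 times as a ratio of means, adjusted p = 0.0133 by limma), a call made under all 21 alternatives. Alpl, a phosphatase placed in the same cycle, was 1.21 higher in TKO (SE 0.17, adjusted p = 0.000104). On ND none of Gatm (-0.42, adjusted p = 0.132), Slc6a8 (-0.24, adjusted p = 0.278), Gamt (0.23, adjusted p = 0.688) and Alpl (0.20, adjusted p = 0.518) was called. Like the macrophage markers given beside Ckb, Gatm (2.60, adjusted p = 8.04e-08) and Slc6a8 (1.60, adjusted p = 7.03e-07) rose with HFD in WT, and the part of these cells was not tested. Gamt (0.24, adjusted p = 0.496) and Alpl (-0.05, adjusted p = 0.817) were not called with HFD in WT. In the limma fit without ND_WT replicate 3, Gamt was called with HFD in WT (0.66, adjusted p = 0.00684). It was also called in that fit for TKO against WT on ND (0.65, adjusted p = 0.0344).

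Among uncoupling proteins that were measurable, Ucp3 was lower in TKO, by -2.21 on ND (adjusted p = 2.1e-06) and by -2.06 on HFD (adjusted p = 2.64e-07). Ucp2 was 1.03 higher in TKO on ND (adjusted p = 0.000585) and 0.45 lower on HFD (log2 change -0.45, adjusted p = 0.00706), with an interaction of -1.49 (adjusted p = 6.78e-05). The Ucp2 call on HFD ended after TMM scaling (-0.32, adjusted p = 0.0682) and with edgeR (adjusted p = 0.0712). Cidea, a lipid droplet protein and brown fat marker, held 206, 242 and 171 reads in ND_WT and 95, 62 and 120 in HFD_WT, against 0, 2 and 2 in ND_TKO and 2, 2 and 3 in HFD_TKO. It was lower in TKO on ND (-3.31, adjusted p = 2.1e-06) and on HFD (-2.11, adjusted p = 2.06e-06). With TKO at or under the floor these sizes are set by the added 1 CPM, and edgeR gave -7.13 and -4.96. Cidea was the only lower call on ND among 23 tested brown and beige markers, of which 2 were higher. P2rx5 was among the higher (1.07, adjusted p = 0.027). That call was lost in a fit of only the ND groups (adjusted p = 0.126). It was also lost without ND_WT replicate 1 (0.103) or 2 (0.0798), or ND_TKO replicate 1 (0.0913) or 3 (0.0914). Nrip1, a corepressor of the oxidative programme, was 0.84 higher in TKO on HFD (adjusted p = 0.000163). Esrra, a partner of Ppargc1a, was 0.35 higher (adjusted p = 0.0175), a call that ended without HFD_WT replicate 1 (adjusted p = 0.0568) or HFD_TKO replicate 1 (0.0665).

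By Pearson's r of log2(CPM + 1) over the 12 libraries, among 14042 genes with a mean of at least 1 CPM, the genes most like each member were as follows. Ckb ran closest to Gm14548 (0.992), Pira6 (0.992) and Pcyt1a (0.992), of which Pira6 belongs to a family of near copies whose reads are uncertain. Dio2 ran closest to Sod2 (0.981), Fam98a (0.980) and Blmh (0.976). Ebf2 ran closest to Osbp2 (0.986) and Slc16a7 (0.981). Ptpn14 was among the closest 3 for both Ppargc1a (0.947) and Ppara (0.961), and Vipr2 for both Elovl3 (0.955) and Fgf21 (0.959). Among the members themselves Elovl3 and Fgf21 had an r of 0.91 and Ppargc1a and Ppara of 0.88, while Dio2 and Ebf2 ran opposite at -0.90. The points share the 4 groups and the CPM scaling, so these values are descriptions.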

How the data were processed

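Total RNA of 12 eWAT libraries was sequenced, and libraries were grouped by their titles. The authors deposited one table of CPM per gene (raw CPM, per the file headers). Per the submitters' processing notes, the tools were featureCounts 2.0.0, STAR 2.7.3a and DESeq2 and the build mm10, with no role stated. The sources used here do not give the annotation or the use of strand. After subtracting an offset of 0.01 read, 100% of values in every library were whole reads within 0.05 read, so reads were recovered. The 3 rows without a symbol (0.0313% to 0.0679% of reads) were left out. CPM scales to the library total, which a few abundant genes can move: the 10 most abundant took 6.99% to 17.1% of reads.

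Genes with at least 0.5 CPM in at least 3 libraries (15597) were fitted with limma 3.58.1 in R 4.3.3 on log2(CPM + 1), with a mean-variance trend, 4 group means and no covariate, leaving 8 residual degrees of freedom. P-values were adjusted by Benjamini-Hochberg over all tested genes. A member under this filter was called too low to judge, and one whose group means were all under 1 CPM was called low. Loci and exon overlaps came from GENCODE vM21, and promoters from RefSeq; 7 of 10 members matched a promoter entry. The named genes were the 10 members, a panel of pathway genes, the 3 called genes of the wider list with the largest change in each direction per comparison (some are not printed), and the 3 genes most correlated with each member (not all are reported here). Members and lists were chosen with earlier results of these data known. Alternatives were edgeR 4.0.16 and DESeq2 1.42.0 on recovered reads, TMM scaling, other pseudocounts and filters, fewer groups, a replicate block and leaving out each library. Applying them to the wider list, and other adipocyte references, were added after seeing the data. The fit was tested on simulated data. Floors and intervals of single libraries cover counting error only.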

Additional observations from a re-analysis of the deposited data

Results flagged for a closer look

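Of the 9 tested thermogenic genes, 3 had a TKO effect that differed between the diets by the interaction test of limma, where 28.7% of all tested genes were called. Ppara had a TKO effect 1.06 higher on HFD than on ND (log2 scale, adjusted p = 0.0401), with 2 of 3 HFD_TKO libraries above HFD_WT and 0.62 and -0.44 as the effects on HFD and ND; this call was lost without each of 10 of the 12 libraries in turn and without a filter on low values. Kcnk3 had an interaction of 0.55 (adjusted p = 0.0293), with all 3 HFD_TKO libraries above HFD_WT and effects of 0.51 and -0.04; this call was lost without each of 7 libraries in turn. Ckb had an interaction of -0.84 (adjusted p = 0.00088), with all 3 TKO libraries below WT on both diets and effects of -1.25 and -0.41; this call was made under all 20 alternatives that give it.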

How the results depend on the processing

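Values of single members under an alternative numbered 1117. Of these, 1045 kept their side of the threshold, 54 lost a call, 18 gained a call and 0 reversed. A value counted as reversed if its sign turned and either fit made a call. Uncalled changes could turn sign, such as Ppargc1a for TKO against WT on ND (-0.48 to 0.09 over the alternatives). No value exists where DESeq2 gave no adjusted p or a filter of 1 CPM removed Fgf21. The count of members called moved as follows. For TKO against WT on ND (1 called) it was 2 with DESeq2, 0 in a fit of only the groups compared, and 0 to 2 without 1 library. For TKO against WT on HFD (4) it was 3 to 8 without 1 library, the 8 being without HFD_TKO replicate 1. For HFD against ND in TKO (4) it was 2 to 5 and for the interaction (3) 1 to 4 without 1 library. For HFD_TKO against ND_WT (5) it was 3 in a fit of only those groups and 4 to 5 without 1 library. For HFD against ND in WT (8) it was 6 to 8 without 1 library. The interaction uses all groups, so it has no fit on fewer. Of the wider list, 11 genes were called for TKO against WT on ND, 7 in a fit of only the ND groups and 7 to 16 without 1 library, and 28 for HFD against ND in TKO, 14 to 34 without 1 library. The causes of these changes were not tested. Over all genes, calls for TKO against WT on ND numbered 889, with 280 in a fit of only the ND groups and 1395 with DESeq2. They numbered 350, 506 and 1853 without ND_WT replicate 1, 2 and 3, and 520 and 435 without ND_TKO replicate 1 and 3. Calls for HFD against ND in TKO numbered 3446, with 1716 without ND_TKO replicate 3 and 2220 without HFD_TKO replicate 3, and those for HFD_TKO against ND_WT 5472, with 3596 in a fit of only those groups.

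TMM scaling moved the median change of all genes from -0.10 to 0.01 for TKO against WT on HFD and from 0.13 to -0.01 for HFD against ND in WT. The higher and lower calls went from 337 and 552 to 498 and 423 (TKO on ND), from 2365 and 4923 to 3539 and 3854 (TKO on HFD), from 5892 and 3173 to 4551 and 4394 (HFD in WT) and from 2525 and 921 to 1521 and 1394 (HFD in TKO).

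With the replicate number as a block, 0 members were called for TKO against WT on ND (Ckb, adjusted p = 0.0589), and no other call of a member changed. Same-numbered libraries of different groups deviated together (r over 0.1) in 5 of 18 pairs, against 17 of 36 pairs of different numbers. Deviations were taken from the mean of each group of 3 libraries, so these r values depend on each other. They cannot show whether the numbers pair the samples.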
